A study of Homo sapiens and Homo sapiens
Mus with 12 samples.

Results

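CUL3 and the other core subunits of the cullin-RING ubiquitin ligases were followed in UM-UC-3 cells, a human bladder cancer line, after knockdown of CDH11, the gene of the cell-cell adhesion protein cadherin 11. The members were 10 genes chosen by name: the scaffolds CUL1, CUL2, CUL3, CUL4A, CUL4B and CUL5, the RING subunits RBX1 and RNF7, the exchange factor CAND1, and NEDD8. CUL3 was singled out because its counts fell in the cultured cells, so its difference from the control in culture is given as a description without a test. All 10 members were listed in both human tables and passed the filter on low counts there, among 9859 genes tested of 21466 with values in culture and 9184 tested of 26813 in the tumors. The cells carried lentiviral GIPZ constructs with a non-silencing hairpin (shCtrl) or 1 of 2 hairpins against CDH11 (sh#1 and sh#2), and every group, the control included, also expressed GFP and was sorted on it, so each line was a pool of infected cells. Cultured cells were sampled after 24 h of preculture, with 3 libraries per group. Xenografts were grown under the skin of male nude mice (BALB/cAJcl-nu/nu, inoculated at 5 weeks of age, with Matrigel) and taken at 4 weeks, with 5 tumors per group. Such hosts lack T cells but keep other stroma and leukocytes. CDH11 KD below means both hairpins together.

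A cullin is a curved scaffold that holds a substrate adaptor at one end and a RING subunit, RBX1 or RNF7, at the other, where the ubiquitin-loaded E2 enzyme docks. Each cullin has its own adaptor family: SKP1 with F-box proteins for CUL1, Elongin B and C with BC-box proteins for CUL2 and CUL5, BTB-domain proteins for CUL3, and DDB1 with DCAF proteins for the CUL4 pair. Attachment of the ubiquitin-like protein NEDD8 to the cullin switches the ligase on, the COP9 signalosome removes it, and CAND1 binds the bare cullin and exchanges its adaptors. CUL3 with the adaptor KEAP1 is known for turning over the oxidative-stress factor NRF2, and CUL2 with VHL for turning over the hypoxia-inducible factors.

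The start regions of CUL3 and CUL5 are shown because these were the scaffolds with the largest falls in culture. Each window runs from 250 bases before to 50 bases after the start site in RefSeq on GRCh38.p14, read 5′ to 3′ on the gene's own strand. All 10 members matched a window, and where a gene had several, the window nearest its annotated 5′ end was used. Other start sites were not searched. On the minus strand, the CUL2 window (chr10:35090565-35090864) and the CUL4B window (chrX:120575483-120575782) lie inside their genes. The annotated 5′ ends of these genes are at 35127006 and 120604074. On the plus strand, the CUL1 window (chr7:148697506-148697805) ends before the annotated start of its gene at 148697914. The CUL3 window lies at chr2:224585314-224585613 on the minus strand, within and just upstream of the gene at chromosome 2, 224470150 to 224585397 (hg38). The CUL5 window lies at chr11:108008648-108008947 on the plus strand, at the start of the gene at chromosome 11, 108008898 to 108107761. Capitals mark matches to ACGTG, the core of the hypoxia response element, or to TGACNNNGC, a core of the antioxidant response element, searched on both strands. The matches in CUL5 overlap one another in 1 run, which begins 20 bases after the start site.
CUL3: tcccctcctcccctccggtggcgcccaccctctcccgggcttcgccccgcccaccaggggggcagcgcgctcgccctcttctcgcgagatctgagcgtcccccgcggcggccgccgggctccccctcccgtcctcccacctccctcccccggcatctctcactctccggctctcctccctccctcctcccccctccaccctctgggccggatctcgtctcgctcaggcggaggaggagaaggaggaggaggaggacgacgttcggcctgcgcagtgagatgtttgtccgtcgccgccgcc
CUL5: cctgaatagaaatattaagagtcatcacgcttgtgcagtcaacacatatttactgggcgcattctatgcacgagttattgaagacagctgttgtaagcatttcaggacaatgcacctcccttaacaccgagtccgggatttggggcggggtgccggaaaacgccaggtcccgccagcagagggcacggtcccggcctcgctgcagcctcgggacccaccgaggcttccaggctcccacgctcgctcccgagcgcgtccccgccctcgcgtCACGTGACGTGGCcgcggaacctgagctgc
The CUL3 window held neither motif and had a GC content of 73.7%. Of the 10 windows, those of CUL5 and RBX1 held both motifs. Among 35116 windows of the same length, 21.4% held ACGTG and 13.3% held TGACNNNGC. The motifs were chosen after the counts had been seen, and a match describes letters only.

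Total counts ranged from 2273182 to 2777019 in the cultured libraries and, on human genes, from 414849 to 1248977 in the tumors, so tumor values rest on fewer reads. CDH11 itself was near the floor in culture, with 2, 4 and 4 counts in shCtrl, 0, 0 and 1 with sh#1, and 1, 2 and 0 with sh#2. In the tumors it had 5 to 32 counts in shCtrl (median 15), 1 to 9 with sh#1 (median 3) and 2 to 14 with sh#2 (median 7). Culture counts this low check the labels weakly, and the tumor groups overlapped. Of the line's markers, VIM, KRT8 and KRT18 were present in every library, while CDH1 and EPCAM had no count in culture and KRT19 had at most 3. CDH2 had 57 to 106 counts in culture and 0 to 25 in the tumors. KRT7 had 5 to 14 counts in culture and 0 to 5 in the tumors. The tumors of each group formed 1 of 3 library mixes, so mix and group cannot be told apart in the tumors.

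CUL3, the scaffold of BTB-based ligases, was lower in every CDH11 KD culture, on average by about 4 times. The shCtrl libraries held 87, 76 and 91 counts, those with sh#1 held 13, 24 and 26, and those with sh#2 held 15, 17 and 14. No KD library came near the controls, and both hairpins gave similar levels. In CPM, the read count scaled to a common library size after TMM normalization, CUL3 averaged 33.4 ± 1.92 (SD, n = 3) in shCtrl, 8.31 ± 2.66 (n = 3) with sh#1 and 7.31 ± 0.707 (n = 3) with sh#2. The log2 fold change was -2.08 (SE 0.18) for CDH11 KD, -2.0 (SE 0.21) for sh#1 and -2.18 (SE 0.22) for sh#2. The levels with the 2 hairpins, which the choice of CUL3 did not use against each other, differed by 0.18 on the log2 scale (SE 0.29, 95% interval -0.39 to 0.76, edgeR adjusted p = 0.696), so their order was not resolved. The pseudogene ANKRD49P1 lies within the CUL3 locus on the same strand; it was not listed in the culture table and had 10 counts over the 15 tumors.

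CUL5, the scaffold of SOCS-box ligases, also fell in culture, by less than CUL3. It had 205, 169 and 199 counts in shCtrl, 130, 118 and 135 with sh#1, and 72, 95 and 80 with sh#2. The 3 groups did not overlap, and sh#2 was the lowest. CPM averaged 75.3 ± 5.72 in shCtrl, 50.7 ± 2.91 with sh#1 and 39.3 ± 5.91 with sh#2 (SD, n = 3 each). The log2 fold change for CDH11 KD was -0.74 (SE 0.13, edgeR adjusted p = 0.00111), and all 6 KD libraries were below the shCtrl mean. With sh#1 alone it was -0.57 (SE 0.12, edgeR adjusted p = 0.000145), and with sh#2 alone -0.94 (SE 0.13, edgeR adjusted p = 1.48e-08). The level with sh#1 was above that with sh#2 by 0.36 (SE 0.13, edgeR adjusted p = 0.0377). That difference missed the threshold with DESeq2 (adjusted p = 0.125) and without any 1 of sh#1 replicate 1 (0.118), sh#1 replicate 2 (0.0888), sh#2 replicate 1 (0.216) or sh#2 replicate 3 (0.0875). 

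**Figure D1:**
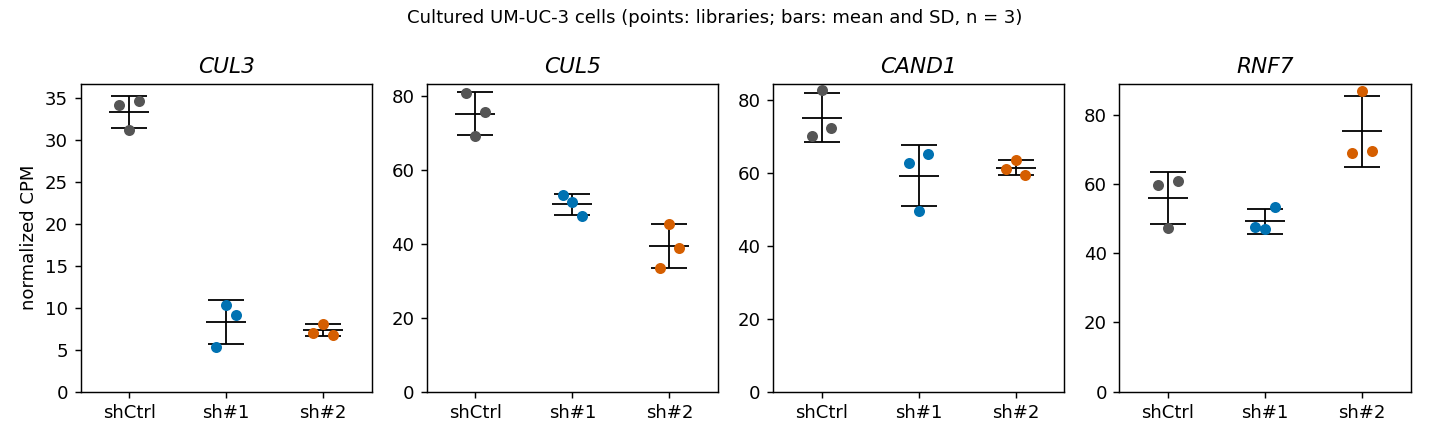
Normalized CPM of CUL3, CUL5, CAND1 and RNF7 in the 9 cultured libraries, by group (shCtrl, sh#1, sh#2); points are libraries and bars show the mean and SD of 3 libraries. CUL3 lies between 5.33 and 10.4 CPM in the KD libraries and between 31.2 and 34.7 in shCtrl, and RNF7 separates the hairpins from each other.

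The remaining 4 scaffolds showed small differences. CUL1, the scaffold of the SCF ligases, averaged 53.3 ± 5.35 CPM in shCtrl and 50.5 ± 6.22 in CDH11 KD, a log2 fold change of -0.08 (SE 0.13, edgeR adjusted p = 0.719). CUL2, which carries VHL, was at 16.9 ± 3.31 and 16.0 ± 2.7 CPM (log2 fold change -0.08, SE 0.19, edgeR adjusted p = 0.821). CUL4A, a scaffold of DDB1-based ligases, was at 100 ± 8.89 and 94.4 ± 9.01 CPM (log2 fold change -0.08, SE 0.11, edgeR adjusted p = 0.635). In each of these, the KD and shCtrl libraries overlapped. CUL4B, the X-linked relative of CUL4A, was at 88.6 ± 4.04 CPM in shCtrl and 99.2 ± 12.2 in CDH11 KD (log2 fold change 0.16, SE 0.11, edgeR adjusted p = 0.337). With sh#2 alone CUL4B was just past the threshold at 0.24 (SE 0.10, edgeR adjusted p = 0.0498), and it rested on sh#2 replicate 3, at 124 CPM against 92.9 and 98.4 in the other two. Without that library the value was 0.11 (adjusted p = 0.456), and with DESeq2 the adjusted p was 0.138. CUL4B shares 10065 bases with MCTS1 on the opposite strand, and since the strand setting of the counting is not given in the sources used here, their reads may not be fully separate.

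The RING subunits behaved differently from each other. RBX1, the partner of CUL1 to CUL4, was even across groups: 128 ± 4.01 CPM in shCtrl and 129 ± 5.73 in CDH11 KD, a log2 fold change of 0.01 (SE 0.09, edgeR adjusted p = 0.962). RNF7, the RING partner of CUL5, had 152, 115 and 160 counts in shCtrl, 116, 108 and 152 with sh#1, and 148, 182 and 143 with sh#2. In CPM it was at 59.8, 47.2 and 61.0 in shCtrl, 47.6, 46.9 and 53.5 with sh#1, and 69.1, 87.0 and 69.6 with sh#2. All sh#2 libraries were above all others. RNF7 rose with sh#2 by a log2 fold change of 0.42 (SE 0.12, edgeR adjusted p = 0.00389) and was at -0.18 with sh#1 (SE 0.12, edgeR adjusted p = 0.33). The level with sh#1 was below that with sh#2 by a log2 difference of -0.60 (SE 0.12, edgeR adjusted p = 0.00014). The rise with sh#2 missed the threshold without shCtrl replicate 2 (0.32, adjusted p = 0.0539) or sh#2 replicate 2 (0.31, adjusted p = 0.0726), while the difference between hairpins passed under all 15 alternatives. With both hairpins joined, the value was 0.14 (SE 0.18, edgeR adjusted p = 0.625). RNF7 overlaps an unnamed protein-coding gene model on the same strand that the tables do not list. Other members overlap annotated genes too. On the same strand these include NEDD8-MDP1 for NEDD8 (15496 bases, 0 counts in culture) and an unlisted long noncoding RNA for CUL2 (29001 bases). On the opposite strand they include CREM for CUL2 (216 bases) and PCID2 for CUL4A (523 bases).

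CAND1, the exchange factor, had 178, 202 and 190 counts in shCtrl, 153, 114 and 185 with sh#1, and 131, 133 and 122 with sh#2. In CPM, all 6 KD libraries (49.6 to 65.2) lay below the 3 shCtrl libraries (70.1 to 82.8). The log2 fold change was -0.32 for CDH11 KD (SE 0.11, edgeR adjusted p = 0.0594), which missed the threshold, and -0.33 with sh#1 (SE 0.11, edgeR adjusted p = 0.0241) and -0.29 with sh#2 (SE 0.12, edgeR adjusted p = 0.0417), which passed it. The calls were close to the threshold: CDH11 KD passed with upper quartile normalization (adjusted p = 0.0394), and DESeq2 gave adjusted p = 0.105 for sh#1 and 0.132 for sh#2. Without shCtrl replicate 2, the values were -0.26 for sh#1 (adjusted p = 0.155) and -0.22 for sh#2 (adjusted p = 0.203). NEDD8, the modifier, averaged 314 ± 12.8 CPM in shCtrl and 315 ± 15.2 in CDH11 KD, a log2 fold change of 0.00 (SE 0.08, 95% interval -0.16 to 0.17, edgeR adjusted p = 0.981).

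Apart from CUL3, 1 of 9 members (11.1%) was called for CDH11 KD in culture, CUL5, where 17.4% of all tested genes were called, 9.12% higher and 8.32% lower. With sh#1, CUL5 and CAND1 were called, both lower (22.2% of 9), where 22.4% of all genes were called and 10.6% were called lower. With sh#2, CUL5 and CAND1 were lower and RNF7 and CUL4B higher (44.4% of 9), where 38.3% of all genes were called, 19.5% higher and 18.8% lower. Between the hairpins, 2 of 10 members were called (20%, against 24.7%). These shares were close to those of all genes, so the counts say nothing particular to the family. The hairpin comparisons share the shCtrl libraries.

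**Figure D2:**
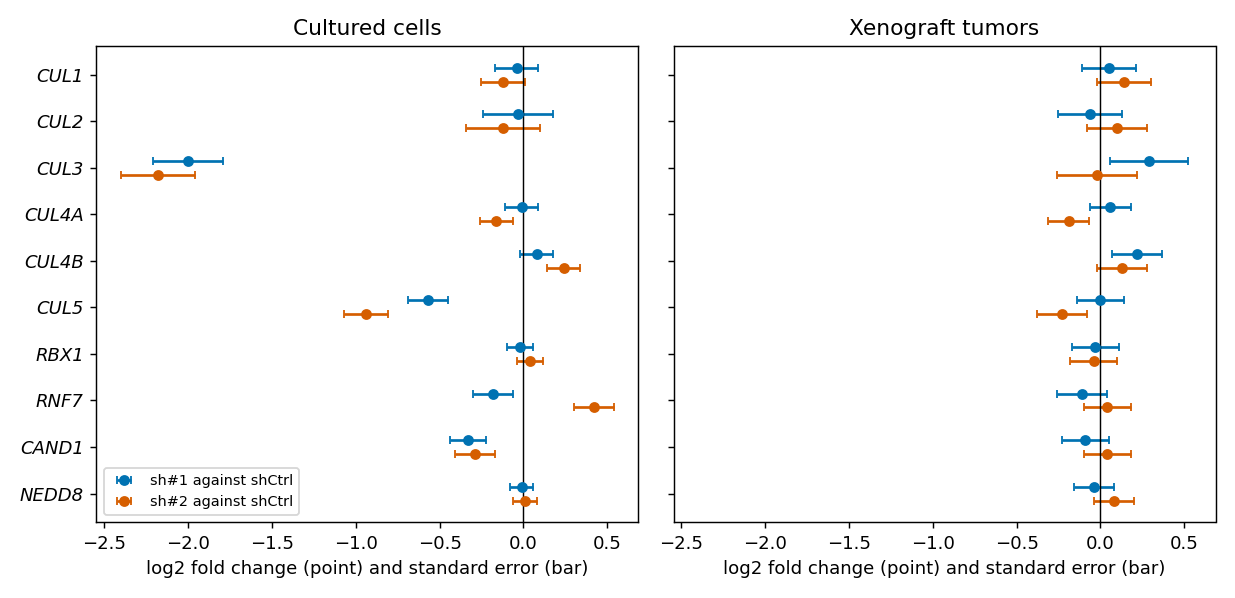
Log2 fold change (points) and standard error (bars) of the 10 members for sh#1 and for sh#2 against shCtrl, in cultured cells and in xenograft tumors, on the same horizontal scale. CUL3 is near -2 with both hairpins in culture and at 0.29 and -0.02 in the tumors, and CUL5 is the other member below zero with both hairpins by more than 0.5 in culture.

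In the tumors, CUL3 on the human genes was not lower with CDH11 KD. It had 31, 20, 21, 17 and 16 counts in shCtrl, 10, 15, 22, 28 and 35 with sh#1, and 11, 20, 28, 14 and 12 with sh#2. In CPM, 3 of 5 sh#1 tumors (27.7, 30.4 and 35.4) and 2 of 5 sh#2 tumors (26.9 and 26.8) lay above every shCtrl tumor (15.1 to 24.9). Tumor 4 of sh#2 (14.9) lay just below every shCtrl tumor, and the rest lay within the shCtrl range. CPM averaged 22 ± 4.06 in shCtrl, 26.8 ± 7.01 with sh#1 and 21.4 ± 5.84 with sh#2 (SD, n = 5 each), and neighbours in the order sh#1, shCtrl, sh#2 did not differ beyond their spread. The log2 fold change for CDH11 KD was 0.14 (SE 0.21, edgeR adjusted p = 0.827), with a 95% interval of -0.28 to 0.56. The culture and tumor tables were normalized separately and came from different sequencing instruments, and the difference between the systems was not tested. With sh#1 the value was 0.29 (SE 0.23, edgeR adjusted p = 0.673) and with sh#2 -0.02 (SE 0.24, edgeR adjusted p = 0.981). In bulk tumors, fewer cells of a type and less RNA per cell cannot be told apart.

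CUL5 in the tumors had 110, 95, 107, 107 and 95 counts in shCtrl, 36, 88, 110, 93 and 122 with sh#1, and 60, 70, 124, 78 and 42 with sh#2. Normalized levels overlapped, at 111 ± 23.2, 108 ± 11.1 and 92.3 ± 15.7 CPM. The log2 fold change for CDH11 KD was -0.11 (SE 0.13, 95% interval -0.38 to 0.15, edgeR adjusted p = 0.764), against -0.74 in culture. RNF7, which separated the hairpins in culture, was at 119 ± 30.0, 113 ± 16.3 and 125 ± 8.73 CPM, and sh#1 against sh#2 gave -0.16 (SE 0.15, edgeR adjusted p = 0.78). CAND1 was at 137 ± 32.4, 127 ± 17.3 and 140 ± 10.6 CPM, with -0.03 for CDH11 KD (SE 0.12, edgeR adjusted p = 0.958). The remaining 6 members had log2 fold changes for CDH11 KD between -0.06 (CUL4A) and 0.18 (CUL4B).

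None of the 10 members was called in the tumors at an adjusted p under 0.1, in any of the 4 comparisons, by edgeR or by DESeq2, and none had an unadjusted edgeR p under 0.05. Few genes were called there in general: 1.51% for CDH11 KD, 1.48% for sh#1, 2.68% for sh#2 and 1.19% between the hairpins.

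**Figure D3:**
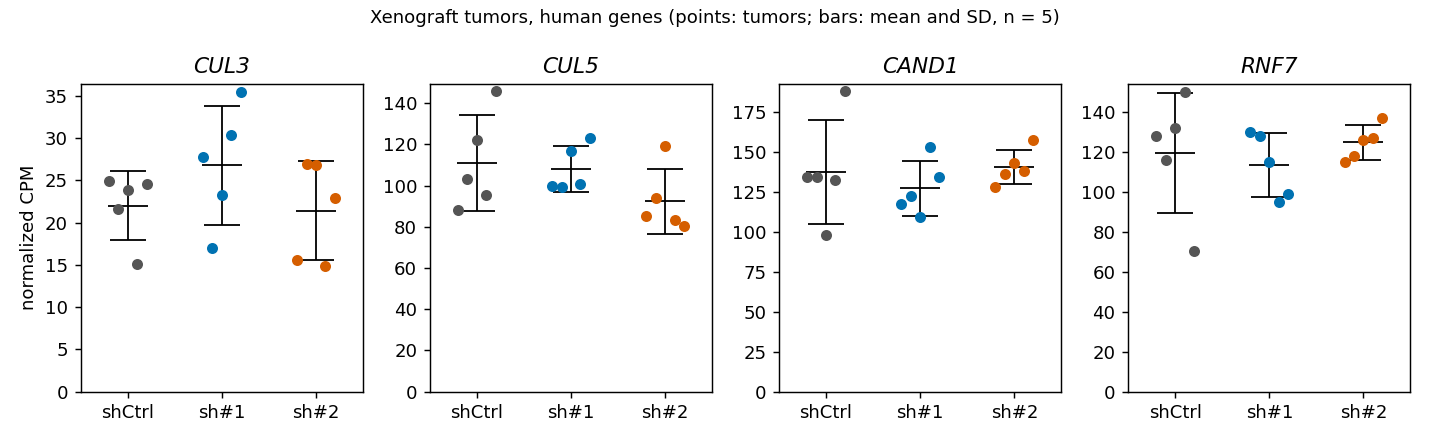
Normalized CPM of human CUL3, CUL5, CAND1 and RNF7 in the 15 tumors, by group; points are tumors and bars show the mean and SD of 5 tumors. The groups overlap for each gene, with CUL3 between 14.9 and 35.4 CPM.

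The tumor reads were also counted on mouse genes, and how human and mouse reads were separated is not given in the sources used here. CUL3 stood out among the members by its mouse share. Over 15 tumors it had 300 human and 247 mouse counts, so 45.2% of its counts were on the mouse gene. The other members ranged from 2.71% (CUL4B) to 18.5% (CUL2), and the median of 7246 genes of the same name with at least 200 counts was 6.36%. The share of CUL3 was above that of 96.9% of those genes. Of all counts in the tumors together, 14.1% were on mouse genes.

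Mouse Cul3 had 19, 17, 7, 9 and 4 counts in shCtrl tumors, 28, 11, 21, 17 and 30 with sh#1, and 8, 17, 35, 12 and 12 with sh#2. The mouse share of CUL3 was 34.8% in shCtrl tumors pooled and 49.5% in CDH11 KD tumors pooled. Per tumor it was 20% to 45.9% in shCtrl and 37.8% to 73.7% in CDH11 KD, so the groups overlapped. The highest share was in sh#1 tumor 1, which had the lowest human total of all and 30% of its counts on mouse genes; without it the pooled share of CDH11 KD tumors was 46.8%. In an edgeR fit of the mouse table, added after the data had been seen, mouse Cul3 had a log2 fold change of 0.82 (SE 0.28, edgeR unadjusted p = 0.00675, adjusted p = 0.805). In that fit 0 of 1669 mouse genes tested were called, with 92, mouse Cul3 among them, at an unadjusted p under 0.05. In a fit of 3 groups mouse Cul3 was at 1.08 with sh#1 (SE 0.29, edgeR adjusted p = 0.247) and 0.52 with sh#2 (SE 0.30, edgeR adjusted p = 0.977). The hairpins differed by 0.56 (SE 0.28, edgeR adjusted p = 0.51). With human and mouse counts added together, also an alternative chosen after seeing the data, CUL3 had a log2 fold change of 0.54 for CDH11 KD (edgeR adjusted p = 0.377).

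Host cell markers moved within wide ranges beside these values. Of the 10 mouse markers, 9 were listed, and their summed CPM, taken over human and mouse counts together, was 902 to 2243 in shCtrl, 553 to 1147 with sh#1 and 683 to 3070 with sh#2. Collagen gene Col1a1 and macrophage gene Lyz2 had counts in every tumor, while Krt14 of skin epithelium had at most 1 and Krt5 was not listed. All mouse genes together were 10.4% to 14.4% of counts in shCtrl, 10.4% to 30% with sh#1 and 13% to 18.8% with sh#2. When each tumor’s balance of mouse and human reads entered the fit as a covariate, the log2 fold change of human CUL3 was 0.16 for CDH11 KD (edgeR adjusted p = 0.866), 0.29 with sh#1 and -0.03 with sh#2. The part of single host cell types was not tested.

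**Figure D4:**
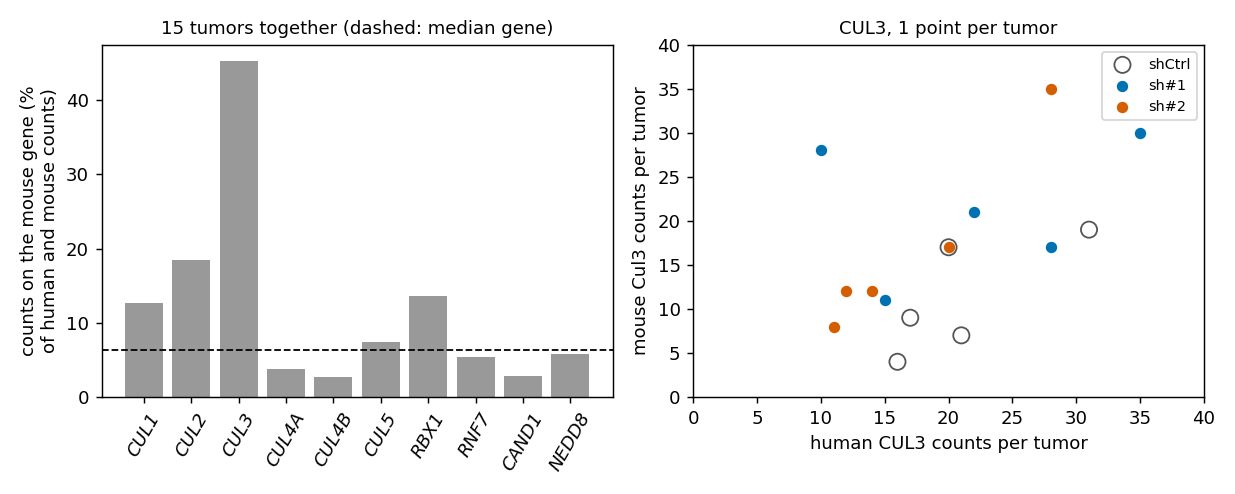
Left, the percentage of human and mouse counts that fell on the mouse gene for each of the 10 members over 15 tumors together, with the median gene at 6.36% dashed. Right, mouse Cul3 counts against human CUL3 counts, 1 point per tumor, coloured by group (shCtrl open); CUL3 reaches 45.2% on the left, and on the right mouse Cul3 counts reach 35 in KD tumors and 19 in shCtrl tumors.

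The other genes of the pathway were read from lists of 131 genes in all, of which 119 were tested in culture. For CDH11 KD, 17 were called (14.3%, against 17.4% of all genes), 5 higher and 12 lower, and the median log2 fold change of all 119 was 0.01. Of the 30 tested BTB adaptors of CUL3, 5 fell and 0 rose (16.7% called, close to the 17.4% of all genes, of which 8.32% were lower). With sh#2 alone 36.7% of the 30 were called, against 38.3% of all genes, and with sh#1 alone 13.3%, against 22.4%. The median of the 30 was -0.25, against 0.00 for all genes, and 21 were below zero. Other lists also had medians off zero. The 10 COP9 signalosome and NEDD8 protease genes were at 0.16, with 1 below zero, and the 13 F-box genes at -0.16, with 7 below. In the tumors the medians of the BTB and COP9 lists were 0.07 and -0.07. KBTBD6, which with KBTBD7 forms a CUL3 adaptor pair, fell from 23.6 ± 5.06 to 8.71 ± 2.75 CPM (log2 fold change -1.42, SE 0.23, edgeR adjusted p = 0.000355). KBTBD7 fell by 0.75 on the log2 scale (SE 0.18, edgeR adjusted p = 0.00989) and KLHL42, a kelch adaptor, by 0.61 (SE 0.15, edgeR adjusted p = 0.00909). The remaining falls were KLHL15 (-1.18, at 2.54 CPM in KD) and KLHL9 (-0.42), named here after their values were seen. With sh#1 alone KLHL15 (-0.95, edgeR adjusted p = 0.0679) and KLHL9 (-0.28, edgeR adjusted p = 0.0655) missed the threshold. KEAP1, the adaptor for NRF2, was at 29.8 ± 3.71 CPM in shCtrl and 21.0 ± 4.31 in CDH11 KD (log2 fold change -0.50, SE 0.17, edgeR adjusted p = 0.0532), which missed the threshold, as it did under 9 of 15 alternatives. KEAP1 was called lower with each hairpin alone, at -0.47 with sh#1 (SE 0.17, edgeR adjusted p = 0.0434) and -0.54 with sh#2 (SE 0.18, edgeR adjusted p = 0.0167). Without shCtrl replicate 1, 2 or 3, the calls were 3, 3 and 2, counted over all BTB adaptors tested. Without replicate 2, the calls of KBTBD7, KLHL9 and KLHL15 were lost (edgeR adjusted p = 0.0651, 0.0593 and 0.0832). Calls over all genes also went from 1719 to 882 without replicate 3. Fitting the hairpins as separate groups and averaging them gave 10 calls among the 30, where 3291 of all 9859 genes were called.

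Among the F-box adaptors of CUL1, 3 of 13 fell and 0 rose (23.1% called, against 17.4% of all genes, of which 8.32% were lower). SKP2, known for turning over the cell-cycle inhibitor p27, went from 41.1 ± 2.83 to 17.2 ± 9.55 CPM (log2 fold change -1.22, SE 0.37, edgeR adjusted p = 0.0475). FBXO31 fell by 0.83 (SE 0.23, edgeR adjusted p = 0.0168) and CCNF, cyclin F, by 0.79 (SE 0.17, edgeR adjusted p = 0.0047). With sh#1 alone FBXO31 missed the threshold (-0.65, SE 0.25, edgeR adjusted p = 0.0526). The hairpins differed in SKP2: it fell by 0.67 with sh#1 (SE 0.15, edgeR adjusted p = 0.000426) and by 2.25 with sh#2 (SE 0.19, edgeR adjusted p = 1.29e-14), a difference of 1.58 (SE 0.21, edgeR adjusted p = 2.98e-08). With the hairpins joined, the SKP2 call was lost with DESeq2 (-1.25, adjusted p = 0.0574) and without any 1 shCtrl library (-1.16 to -1.26, adjusted p = 0.114 to 0.134), at folds about as large. The FBXO31 call was lost without shCtrl replicate 1 (-0.80, adjusted p = 0.0702) or 2 (-0.73, adjusted p = 0.0942), and that of CCNF without shCtrl replicate 2 (-0.62, adjusted p = 0.0531).

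Of the 24 Elongin and BC-box genes, 2 rose and 2 fell (16.7% called, close to the 17.4% of all genes). WSB1, a SOCS-box adaptor, rose from 100 ± 1.89 to 192 ± 31.4 CPM (log2 fold change 0.94, SE 0.13, edgeR adjusted p = 6.96e-05), and all 6 KD libraries were above the controls' mean. ELOB, the gene of Elongin B, rose by 0.34 (SE 0.09, edgeR adjusted p = 0.0138). SOCS7 fell by 0.88 (SE 0.27, edgeR adjusted p = 0.04) and VHL, the adaptor of CUL2 for hypoxia-inducible factors, by 0.40 (SE 0.13, edgeR adjusted p = 0.0357). SOCS7 was lower with each hairpin, by 0.49 with sh#1 (edgeR adjusted p = 0.0167) and by 1.5 with sh#2 (edgeR adjusted p = 1.62e-09), and the hairpins differed by 1.01 (SE 0.20, edgeR adjusted p = 6.61e-05). VHL was also called with each hairpin, at -0.34 with sh#1 (edgeR adjusted p = 0.0459) and -0.47 with sh#2 (edgeR adjusted p = 0.0047). With the hairpins joined, the SOCS7 call was lost without any 1 shCtrl library (-0.81 to -0.92, adjusted p = 0.102 to 0.14). That of VHL was lost with DESeq2 (-0.40, adjusted p = 0.0564) and without any 1 shCtrl library (-0.31 to -0.47, adjusted p = 0.054 to 0.191), and that of ELOB without shCtrl replicate 1 (0.27, adjusted p = 0.103).

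Of the 23 DDB1 and DCAF genes of the CUL4 ligases, PHIP (0.61, SE 0.10, edgeR adjusted p = 0.000725) and DCAF5 (0.59, SE 0.13, edgeR adjusted p = 0.00426) rose, and DCAF13 fell by 0.89 (SE 0.17, edgeR adjusted p = 0.00202), which made 13% called against 17.4% of all genes. Of the 9 ubiquitin-transferring partners, UBE2D3, an E2 enzyme, rose by 0.29 (SE 0.08, edgeR adjusted p = 0.025), a call lost without any 1 shCtrl library (0.27 to 0.31, adjusted p = 0.07 to 0.105). Of the 9 neddylation enzymes, 1 fell: DCUN1D3, a NEDD8 ligase subunit, at -1.22 from 6.84 CPM (named after its value was seen). That call was also lost without any 1 shCtrl library (-1.20 to -1.23, adjusted p = 0.0739 to 0.0837). With sh#2 alone DCUN1D3 missed the threshold (-0.89, SE 0.38, edgeR adjusted p = 0.0591). None of 10 COP9 signalosome and NEDD8 protease genes was called by edgeR, and 0 by DESeq2, with 3 at an unadjusted p under 0.05, and CUL7, the 1 tested gene of the other cullin-like scaffolds, was not called.

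In the tumors 112 of the 131 genes were tested and 0 were called for CDH11 KD by edgeR or by DESeq2, with 12 at an unadjusted p under 0.05. Without shCtrl replicate 5, 4 were called. With sh#2 alone, 1 was called, where 1.32% of all genes were called lower: ELOB was lower, at 207 ± 30.2 CPM in shCtrl and 152 ± 18.1 with sh#2 (log2 fold change -0.46, SE 0.13, edgeR adjusted p = 0.0586). That call was lost without any 1 of sh#2 replicates 1, 2 and 4 or shCtrl replicates 1, 3 and 4 (-0.40 to -0.47, adjusted p = 0.112 to 0.181). In culture the same gene was higher with sh#2, by 0.36 (SE 0.08, edgeR adjusted p = 0.000219). SKP2, singled out here after its tumor values were seen, was at -0.54 for CDH11 KD in the tumors (SE 0.19, edgeR adjusted p = 0.213). It was at -0.50 with sh#1 and -0.58 with sh#2. All 10 KD tumors were below the shCtrl mean, though the groups overlapped. Of the other genes that fell in culture, KBTBD6 (0.10), KLHL42 (0.10), KLHL9 (0.19), KLHL15 (0.09) and DCUN1D3 (0.04) were above zero in the tumors. KBTBD7 (-0.04), CCNF (-0.15), SOCS7 (-0.05), VHL (-0.14) and DCAF13 (-0.14) were below.

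The genes most like CUL3 across libraries were named by Pearson correlation of log2 CPM, as a description, since libraries of a group share their treatment and mix. Over the 9 cultured libraries and 8109 genes, these were EED, a Polycomb subunit (r = 0.981), PMEPA1 (0.977), C5orf24 (0.974), TNRC6A, a partner of Argonaute in microRNA silencing (0.973), and ZDHHC14, a palmitoyltransferase (0.971). Among the other members, CUL5 was closest at r = 0.874 (rank 207), then CAND1 at 0.678 (rank 1063), and CUL4B was at -0.509. Over the 15 tumors and 6444 genes, the list was different: CTSC (0.827), CFDP1 (0.740), MIDN (0.726), SLC38A10 (0.719) and ARID5B (0.719). CUL4B (0.521) and CUL5 (0.483) were the closest members there. Neither list shares a gene with the other. MIDN of the tumor list was nonetheless lower with CDH11 KD in culture (log2 fold change -1.77, SE 0.22, edgeR adjusted p = 5.12e-05). The rest of that list was not called for CDH11 KD in culture. Human CUL3 had 10 to 35 counts per tumor. Whether the tumor correlations exceed the highest that unrelated genes would reach among 6444 was not tested.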

How the data were processed

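RNA-seq counts were analysed for cultured UM-UC-3 cells (9 libraries) and xenograft tumors (15). The authors deposited raw counts per gene. Cultured libraries were 75 bp single reads trimmed in CLC Genomics Workbench and mapped to hg38 with RaNAseq. Tumor reads were trimmed with Trim Galore and mapped with HISAT2 to hg38. The paper gives a NextSeq instrument for the cultured cells and a NovaSeq for the tumors. The counting tool, strand setting and use of molecular identifiers are not given in the sources used here. In culture, 13 listed genes had no values and were not analysed here. Nothing states whether replicates came from separate cultures, so p-values for culture measure the spread between these libraries.

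Counts were fitted over all genes with edgeR 4.0.16 in R 4.3.3 (TMM, filterByExpr, robust quasi-likelihood test), with Benjamini-Hochberg adjustment over all genes tested and thresholds of 0.05 in culture and 0.1 in tumors. CDH11 KD against shCtrl was a fit of 2 groups; single hairpins came from a fit of 3 groups. SE was derived from the F statistic. CPM used TMM-normalized library sizes. DESeq2 1.42.0, upper quartile normalization, other filters, a replicate block, a mouse-to-human covariate and leaving out each library were the alternatives. Scripts were tested on simulated data. Replicate numbers were not used to pair libraries in the main fits.

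Members and lists were chosen with earlier results of these data known. Named were all members, up to 3 largest rises and falls per list in each system (mean of at least 20 counts, same direction with each hairpin), and the 5 genes most like CUL3 in each system (log2 CPM, prior count 2).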

Additional observations from a re-analysis of the deposited data

Results flagged for a closer look

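The effect of sh#1 on CUL5 in culture differed from that of sh#2: the level with sh#1 was higher by 0.36 on the log2 scale (SE 0.13, edgeR adjusted p = 0.0377), a difference that missed the threshold with DESeq2. The effect of sh#1 on RNF7 differed from that of sh#2 by -0.60 (SE 0.12, edgeR adjusted p = 0.00014). Between the hairpins, 24.7% of all tested genes were called, so differences of this kind were common.

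In the counts on mouse genes, which the comparisons of human members did not use, mouse Cul3 took 49.5% of the human and mouse CUL3 counts of the CDH11 KD tumors, against 34.8% in the shCtrl tumors. These shares pool the counts of all tumors of a group. Without sh#1 tumor 1 the share in CDH11 KD tumors was 46.8%. Per tumor the groups overlapped, at 20% to 45.9% in shCtrl and 37.8% to 73.7% in CDH11 KD. Mouse Cul3 was not called for CDH11 KD in the fit of the mouse genes (edgeR adjusted p = 0.805). None of the 30 groups of 5 tumors (10 members, 3 groups) held a tumor far from the others by Dixon's test, which chance would flag in about 1 of 20 groups.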

How the results depend on the processing

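In culture, the CUL5 call for CDH11 KD and for each hairpin and the difference between hairpins in RNF7 held under all 15 alternatives. For CDH11 KD the members called were 2 with upper quartile normalization, with at least 10 counts in every library, and with the hairpins fitted as separate groups and averaged, since CAND1 then passed. The last of these gave 34 calls among 119 genes of the other pathway lists and 10 among 30 BTB adaptors. Over all genes, that fit called 3291 of 9859. DESeq2 called 1 member with sh#1, 2 with sh#2 and 1 between hairpins. Leaving out 1 library gave 1 to 2 members with sh#1, 1 to 4 with sh#2 and 1 to 2 between hairpins, 8 to 23 calls in the pathway lists, 2 to 7 among BTB adaptors, and 0 to 4 pathway calls in the tumors. Over all genes, calls for CDH11 KD in culture ranged from 882 (without shCtrl replicate 3) to 3291 (hairpins averaged) against 1719, and in the tumors from 48 (without shCtrl replicate 1) to 399 (without shCtrl replicate 5) against 139. With sh#2 in the tumors, 125 genes were called higher and 121 lower, and upper quartile normalization gave 105 and 165. Between the hairpins in the tumors, 59 were higher with sh#1 and 50 lower, and DESeq2 gave 70 and 39.

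Values near 0 changed sign, none of them called. In culture, CDH11 KD gave -0.02 for RBX1 and -0.03 for NEDD8 with upper quartile normalization, and -0.01 for both with at least 10 counts in every library. In the tumors, CUL2 and NEDD8 gave -0.01 with no filter, CAND1 gave 0.01 with human and mouse counts summed, and CUL3 with sh#2 gave 0.35 with them summed. Leaving out 1 library in culture gave -0.12 to 0.01 for CUL1, -0.23 to 0.03 for CUL2, -0.02 to 0.03 for RBX1 and -0.01 to 0.04 for NEDD8. In the tumors it gave -0.05 to 0.10 for CUL2, -0.12 to 0.01 for RBX1, -0.16 to 0.06 for RNF7, -0.12 to 0.09 for CAND1, -0.03 to 0.06 for NEDD8 and -0.15 to 0.09 for CUL3 with sh#2. Where no cause is stated, the cause was not tested. Of 905 single-gene values, 786 kept direction and side of the threshold, 76 lost and 9 gained the call, and 34 changed sign.

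No source used here says what libraries of the same number share. Over 9 such pairs in culture, deviations from the group mean correlated between -0.00512 and 0.0551 (median 0.0207). Over 18 pairs of different numbers they correlated between -0.0555 and 0.0442 (median -0.013). In the tumors the ranges were -0.096 to 0.126 and -0.192 to 0.187. These weak correlations do not settle whether the numbers pair libraries. With a replicate block, CDH11 KD in culture had 1 member called and 15 pathway genes, and the calls of SKP2 (adjusted p = 0.0872), SOCS7 (0.0669), VHL (0.0617) and UBE2D3 (0.0557) in the edgeR fit were lost, while KEAP1 passed (0.0397). CUL3 had at most 35 human counts per tumor, and changes inside the interval of -0.28 to 0.56 could not be resolved at this depth.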
